A study of Rattus norvegicus with 241 samples.

Results

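Luminal mammary epithelial cells of adult parous ACI rats were profiled by bulk RNA sequencing after oral dosing with a TGFBR inhibitor (TGFBRi, the compound LY2157299, which blocks the kinase of the type I TGFβ receptor) or with its vehicle. The libraries described here were those whose labels gave adult ACI rats, the luminal fraction and parous status, which took in 4 TGFBRi and 4 vehicle rats, or 8 of the 241 samples in the series. All 8 rats were parous ACI/SegHsd females aged 18–24 weeks, an inbred strain known for mammary tumors after estrogen exposure, and no tumor-inducing agent was given in this experiment. TGFBRi rats received 75 mg/kg by gavage 2 times a day for 10 days, vehicle rats received the carrier suspension on the same schedule, and glands were collected on day 0 after the last dose. Luminal cells had been sorted as CD24+CD29low among CD31-CD45- cells. Rats carried the codes P1N, P1R, P2N and P2R in each arm, but the rats that share a code were different animals.

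TGFβ ligands bind TGFBR2, which recruits and phosphorylates TGFBR1, and TGFBR1 in turn phosphorylates SMAD2 and SMAD3, which enter the nucleus with SMAD4. In the mammary gland this pathway restrains epithelial proliferation and ductal growth, and blocks milk protein expression during pregnancy. Luminal cells line the ducts and alveoli, and comprise secretory precursors and hormone-sensing cells. The question here was which luminal transcripts differed at the end of dosing in adult parous glands.

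The files held read counts divided by a size factor per library, here called normalized counts. Reads on genes ranged from 17381368 to 35623430 over the 8 libraries. The luminal markers KRT8, KRT18, KRT19, EPCAM and CD24 were high in all 8 libraries, with a summed normalized count of 429799 to 594293 in vehicle and 402586 to 693511 in TGFBRi rats, against 50393 to 77584 in basal cells of the same rats. The sum of 5 basal markers was 1307 to 2866 in vehicle and 415 to 1596 in TGFBRi luminal cells, against 202560.3 to 322813 in basal cells. The sum of 4 fibroblast markers was 3954 to 11518 in vehicle and 1941 to 5729 in TGFBRi rats, that of 4 endothelial markers 243 to 898 and 389 to 764, and that of the 4 of 5 leukocyte markers listed in the files 263 to 949 and 387 to 782. The 2 adipocyte markers together stayed under 30 in all 8 libraries, with a highest sum of 29.2. Vehicle rats P2N and P2R stood apart on the first principal component, which held 19.76% of the variance over the 16 adult luminal libraries, at -98.3 and -101.4 against -27.3 to 66.2 in the other 6 parous rats. These 2 libraries also held the fewest detected genes, 11641 and 11466, against 13109 to 13878 in the other 6. Counts assigned to no single gene made up 23.1 to 27.0% of all counts in vehicle and 25.2 to 35.2% in TGFBRi rats (n = 4 each, two-sided exact permutation p = 0.0571, smallest possible 0.0286). P2N and P2R share the code P2, and whether they also shared a cage or a preparation is not given in the sources used here. Parous luminal log2 fold changes and list medians without these 2 rats are given beside those that moved by over 1.5 times or changed sign. Fits without them hold fewer vehicle rats and have less power, so counts of genes that pass can fall for that reason too. The part of these library differences in each result was not tested.

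Of 14243 genes tested, 4 differed between TGFBRi and vehicle in limma (Benjamini-Hochberg adjusted p at most 0.05), fitted on log2(normalized count + 1). The genes that rose were IGF2R, which clears IGF2, carries lysosomal enzymes by their mannose 6-phosphate tag and binds latent TGFβ, and ZBTB16, a zinc finger transcription factor known as a glucocorticoid- and progesterone-induced gene. Of the genes that fell, MOB1A, an adaptor that activates the LATS kinases of the Hippo pathway, is described here. Each direction thus held 2 genes, or 0.0140% of those tested. In sorted bulk samples, fewer cells of a type and less RNA per cell cannot be told apart.

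IGF2R measured 769, 860.4, 498 and 466 normalized counts in vehicle rats P1N, P1R, P2N and P2R and 2058, 1884, 2519.6 and 2049 in the TGFBRi rats of the same codes. The groups did not overlap, and the lowest TGFBRi rat lay above the highest vehicle rat by more than the whole vehicle range. The means were 648 ± 196 and 2128 ± 273 (SD, n = 4 each), a log2 fold change of 1.76 (SE 0.21, adjusted p = 0.00182 in limma). IGF2R kept an adjusted p under 0.05 whichever rat was left out, with log2 fold changes of 1.61 to 1.91. Without vehicle rats P2N and P2R together its log2 fold change was 1.38 (adjusted p = 0.0839 in limma).

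ZBTB16 measured 142, 244, 54.6 and 133 in vehicle rats and 704, 497, 853 and 1119.8 in TGFBRi rats. Every TGFBRi rat was above every vehicle rat, and the vehicle rat P2N was the lowest. The log2 fold change was 2.58 (SE 0.41, adjusted p = 0.0312 in limma), and 2.02 without P2N and P2R.

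MOB1A measured 3059.5, 1722, 6510.4 and 5355 in vehicle rats and 1045, 979, 761 and 971 in TGFBRi rats. The TGFBRi rats lay close together below all vehicle rats, and the vehicle rats spread widely, with P2N and P2R highest. The log2 fold change was -1.98 (SE 0.30, adjusted p = 0.0312 in limma), and -1.30 without P2N and P2R.

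ZBTB16 and MOB1A each kept an adjusted p of 0.05 or less in 1 of the 8 fits that left out a rat, the one without vehicle P1R, and no gene kept one without P2N and P2R together.

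**Figure D1:**
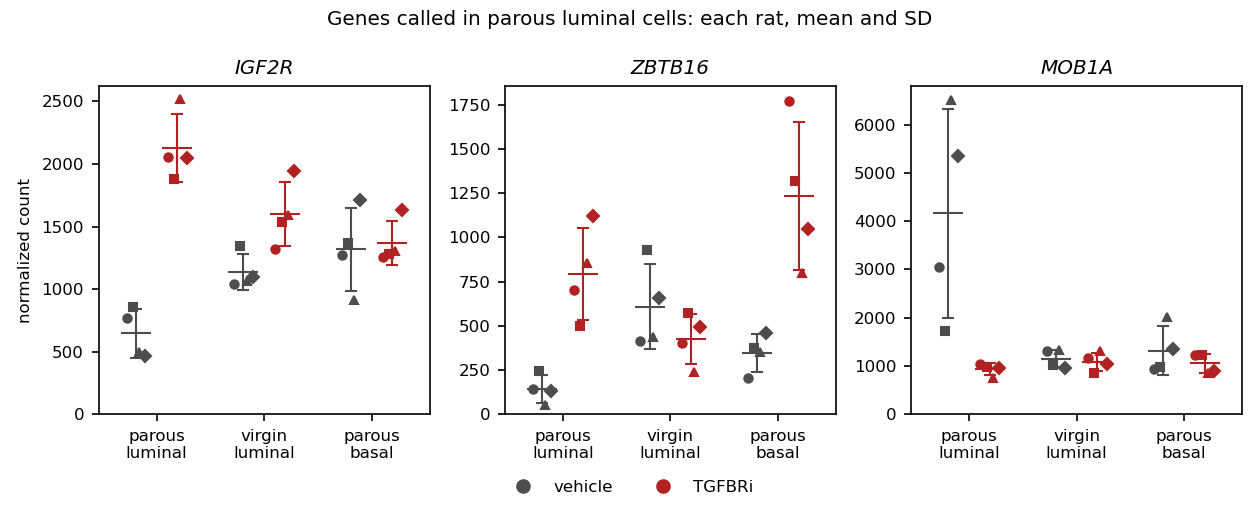
Normalized counts (y axis, from 0) of IGF2R, ZBTB16 and MOB1A in each rat of the parous luminal, virgin luminal and parous basal groups, vehicle in grey and TGFBRi in red, with the mean (long tick) and SD (bars, n = 4), marker shapes standing for the rat code within a group. The parous luminal groups do not overlap for any of the 3 genes, and MOB1A is higher in parous vehicle luminal cells (1722 to 6510.4) than in any virgin luminal library.

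The promoters of IGF2R and MOB1A are shown because these genes had the smallest p in each direction. The sequences are the 250 bases before the annotated start in RefSeq (GRCr8), IGF2R at chr1:50526628-50526877 on the plus strand and MOB1A at chr4:117389028-117389277 on the plus strand, and ZBTB16 was not matched in the table. Capitals mark CAGAC (the SMAD-binding box) and CACGTG (the E-box), each searched on both strands, and the E-box was added after the IGF2R sequence had been read.
IGF2R: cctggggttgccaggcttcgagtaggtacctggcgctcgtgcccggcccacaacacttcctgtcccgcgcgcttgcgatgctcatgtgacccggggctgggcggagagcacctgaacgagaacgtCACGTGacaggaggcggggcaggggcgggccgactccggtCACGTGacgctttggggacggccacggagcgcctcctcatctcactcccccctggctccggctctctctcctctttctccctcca
MOB1A: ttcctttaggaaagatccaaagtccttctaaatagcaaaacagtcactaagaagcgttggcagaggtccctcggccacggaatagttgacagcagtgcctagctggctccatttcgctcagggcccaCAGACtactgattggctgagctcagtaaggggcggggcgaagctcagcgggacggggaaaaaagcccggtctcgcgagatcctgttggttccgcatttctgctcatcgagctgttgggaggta
The IGF2R window held 2 E-boxes and 0 SMAD boxes, and the MOB1A window held 1 SMAD box and 0 E-boxes. Of 33465 promoter windows of this length in the table, 42.9% held a SMAD box and 5.6% an E-box on either strand.

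At an unadjusted p under 0.05, 1369 genes were higher (9.61% of those tested) and 489 lower (3.43%) with TGFBRi. All 4 TGFBRi rats lay above all 4 vehicle rats for 575 genes (4.04%) and below them for 383 genes (2.69%). The median log2 fold change over all genes was 0.13. Without P2N and P2R the median was 0.03, and 402 genes were higher (2.83%) and 184 lower (1.30%) at the same unadjusted threshold. With fewer vehicle rats that fit has less power, so its lower counts do not by themselves show smaller differences. DESeq2 on the recovered reads, the test of the study, placed 153 genes (1.07%) higher and 59 (0.414%) lower at an adjusted p of 0.05 or less, including all 4 genes called by limma. Of these 212 genes, the values of 173 did not overlap between groups. edgeR placed 5 genes at that threshold, the same 4 and MAP3K12.

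**Figure D2:**
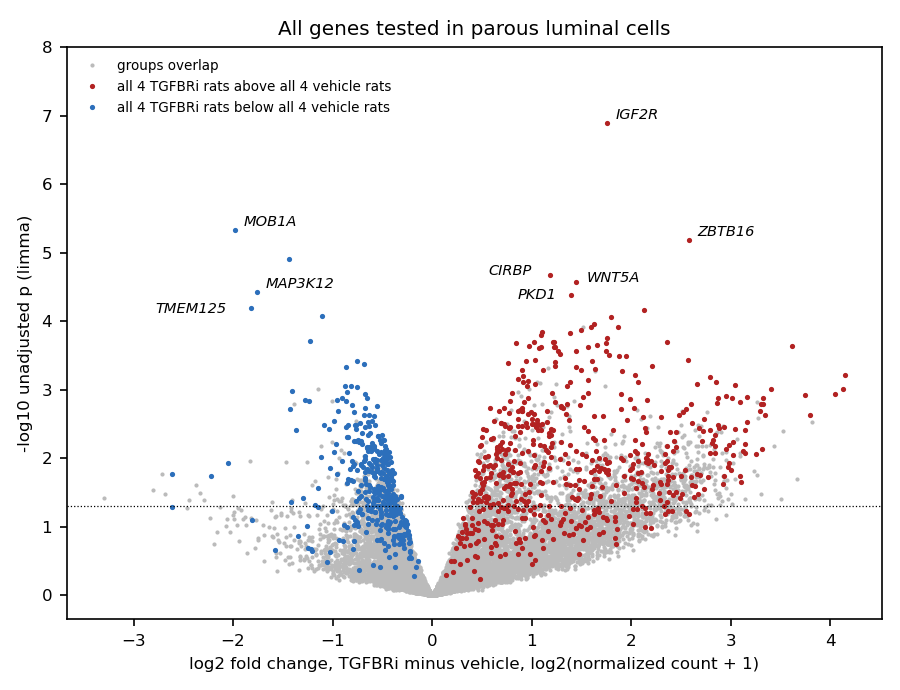
Log2 fold change of TGFBRi minus vehicle in parous luminal cells (x axis, log2(normalized count + 1) scale) against -log10 of the unadjusted limma p (y axis) for 14243 genes, red and blue where the groups do not overlap. IGF2R, ZBTB16 and MOB1A, which passed the adjusted threshold, lie at the top, and more genes at low p lie to the right of 0 (1369) than to the left (489).

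The genes next in order of p, with a mean of at least 50 normalized counts and no overlap between groups, missed the adjusted threshold in limma, and their values are given as measurements. On the higher side, CIRBP, the cold-inducible RNA-binding protein, measured 1401, 907, 1262 and 1283 in vehicle rats and 3629.7, 2505, 2729 and 2220.1 in TGFBRi rats. Its log2 fold change of 1.19 (SE 0.21, adjusted p = 0.0601 in limma) was 1.27 without P2N and P2R. AFF1, a scaffold of the super elongation complex, measured 225 to 733 in vehicle and 1109 to 2000.4 in TGFBRi rats.

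Also on the higher side, WNT5A, a noncanonical Wnt ligand that restrains ductal growth and is known to respond to TGFβ in mammary epithelium, measured 167, 126, 205 and 259.6 in vehicle rats and 547, 384, 496 and 614 in TGFBRi rats. The groups were well apart and the log2 fold change was 1.45 (SE 0.26, adjusted p = 0.0646 in limma), or 1.79 without P2N and P2R. PKD1, which encodes the membrane receptor-like protein polycystin-1, measured 316 to 390.5 in vehicle and 686 to 1202 in TGFBRi rats. The receptor tyrosine kinase ALK measured 75.3 to 192 and 321 to 714, and VIPR1, a receptor for vasoactive intestinal peptide, 264 to 787 and 966 to 1953, with log2 fold changes of 1.23 to 1.75 with 1 rat left out and 0.87 without P2N and P2R. The tyrosine phosphatase PTPN21 measured 76.7 to 281 and 351 to 571, with a log2 fold change of 1.63, or 1.03 without these rats. The amino acid transporter SLC38A2 measured 3888 to 7488 and 9494 to 12361, and the kinesin KIF1B 196 to 548 and 573 to 1016.

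On the lower side, MAP3K12, the dual leucine zipper kinase of the JNK pathway, measured 1232, 557, 1876 and 1990.5 in vehicle rats and 325, 364, 417 and 387 in TGFBRi rats. As for MOB1A, the TGFBRi rats were tightly grouped and the vehicle rats were not, and the log2 fold change of -1.76 (SE 0.32, adjusted p = 0.0734 in limma) was -1.15 without P2N and P2R. PFKL, a phosphofructokinase of glycolysis, measured 887 to 1136 in vehicle and 294 to 497 in TGFBRi rats, COA5, an assembly factor of cytochrome c oxidase, 3433 to 6442 and 1952 to 2710.0, and the mitochondrial ribosomal gene MRPL45 811 to 1191 and 458 to 704. The log2 fold change of COA5 was -1.11 with P2N and P2R and -0.72 without, and that of PFKL -1.23 and -1.30. The arginine methyltransferase PRMT1 measured 4403 to 5359 and 2763 to 3119.6, the acetyltransferase KAT5 1302 to 2334 and 809.7 to 1106, the IκB-family protein BCL3 2869 to 3670.2 and 1588 to 1981, and TANK, a TRAF-binding regulator of NF-κB, 1239 to 2100.5 and 617 to 1150.2. The protein disulfide isomerase PDIA6 measured 13708 to 21903 and 9096 to 11940.1, and TMEM125 438 to 779 and 133 to 244.

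**Figure D3:**
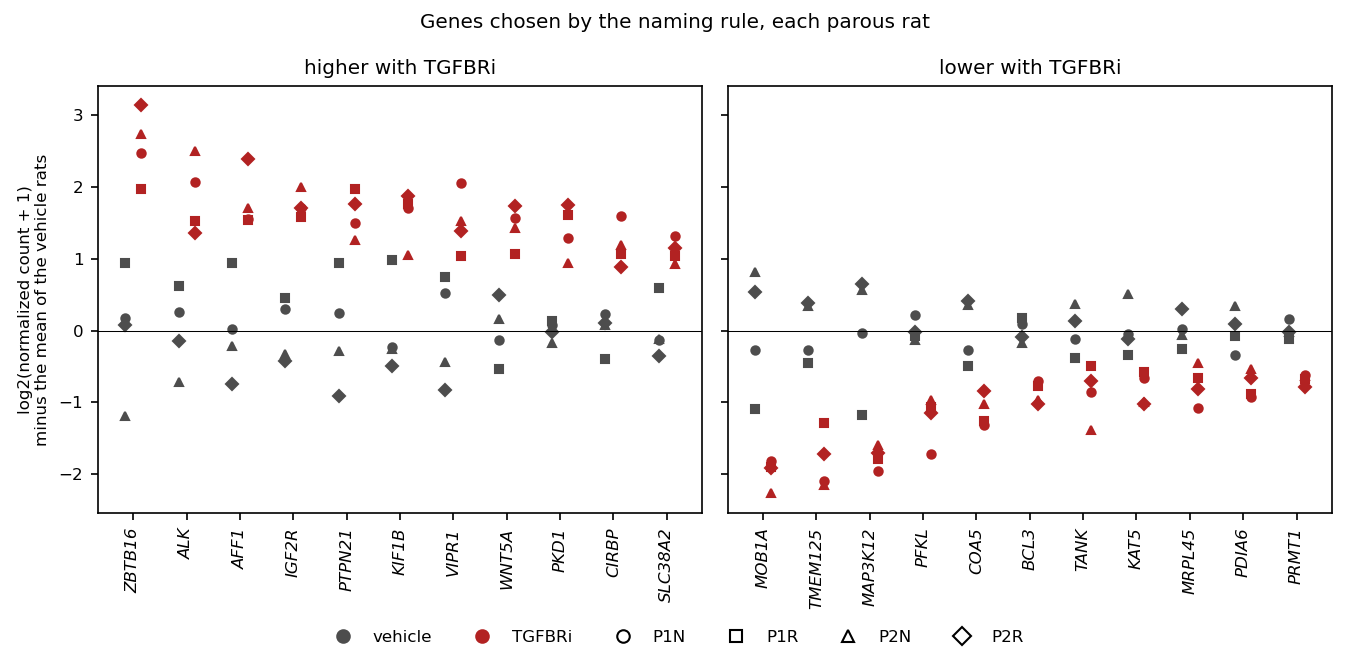
Log2(normalized count + 1) of each parous luminal library minus the mean of the 4 vehicle rats (y axis) for 11 genes higher and 11 genes lower with TGFBRi, vehicle in grey and TGFBRi in red, marker shapes giving the rat code. No gene overlaps between groups, as the rule of choice required, and vehicle rats P2N and P2R are the highest vehicle rats for MOB1A, TMEM125, MAP3K12, COA5, PDIA6 and TANK.

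The virgin luminal libraries of the same experiment gave a level for each of the 24 genes of the naming rule that the choice had not used. For MOB1A the 8 virgin libraries, 4 vehicle and 4 TGFBRi, measured 867 to 1326, below all parous vehicle rats and overlapping the parous TGFBRi rats. For IGF2R virgin vehicle rats measured 1042, 1348, 1064 and 1094 and virgin TGFBRi rats 1324, 1539, 1591 and 1946, so that parous vehicle rats were below and parous TGFBRi rats mostly above the virgin values. Since the genes were chosen on the same parous libraries, the distances are a description. Over the 24 genes the parous vehicle mean lay farther from the virgin vehicle mean than the parous TGFBRi mean did in 17, with median distances of 0.91 and 0.40 on the log2 scale. Over all 958 genes whose parous groups did not overlap this held for 593, with medians of 0.50 and 0.31. The distances were not taken over all genes tested or without P2N and P2R.

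The TGFβ pathway itself showed no gene at the adjusted threshold in limma. Of 14 ligands, receptors and latency genes tested, 4 were higher and 0 lower at an unadjusted p under 0.05 (over all genes 9.61% and 3.43%), with a median log2 fold change of 0.47 beside 0.13 over all genes. Without P2N and P2R, 1 was higher and 0 lower at that threshold (over all genes 2.83% and 1.30%) and the median was 0.22 beside 0.03. LTBP3, which binds latent TGFβ in the matrix, measured 1088, 1238, 617 and 716 in vehicle rats and 2259.8, 1806, 1701 and 1833 in TGFBRi rats. The groups did not overlap, and the log2 fold change was 1.10 (SE 0.24, adjusted p = 0.0981 in limma, 0.00974 in DESeq2), or 0.70 without P2N and P2R. The target kinase TGFBR1 measured 395, 826, 478 and 443 in vehicle rats and 745, 951, 749 and 1298 in TGFBRi rats. The groups overlapped through vehicle P1R, with a log2 fold change of 0.83 (SE 0.26, unadjusted p = 0.0051, adjusted p = 0.242 in limma). TGFBR2, the type II receptor, had a log2 fold change of 0.78 (SE 0.29). ITGB6, an integrin subunit that activates latent TGFβ, measured 64.2, 70.9, 29.2 and 0 in vehicle rats and 242, 187, 119 and 96.6 in TGFBRi rats. Its log2 fold change of 2.97 (SE 1.08) was 1.98 in DESeq2, 1.55 without vehicle P2R, which was at 0, and 1.15 without P2N and P2R. The ligands TGFB1 and TGFB3 differed by 0.06 (SE 0.32) and 0.02 (SE 0.48), or 0.09 and -0.13 without P2N and P2R, and TGFB2 by -0.61 (SE 0.32).

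Among 12 SMADs and feedback genes, 1 was higher and 0 lower at an unadjusted p under 0.05 (over all genes 9.61% and 3.43%), with a median of 0.11. Without P2N and P2R, 0 passed in either direction (over all genes 2.83% and 1.30%). The higher gene was SMAD7, the inhibitory SMAD that TGFβ induces, at 2067, 2004, 1351 and 1247 in vehicle rats and 2867, 2338, 3229 and 2743 in TGFBRi rats. The groups did not overlap, but the log2 fold change of 0.77 (SE 0.32, adjusted p = 0.321 in limma) was 0.45 without P2N and P2R. With the share of counts on no single gene as a covariate, SMAD7 was at 1.10 (unadjusted p = 0.023 and adjusted p = 0.964 in limma). PMEPA1, another feedback inhibitor induced by TGFβ, measured 5364, 5521, 8675 and 5411 in vehicle rats and 5607, 6397, 1476 and 2445 in TGFBRi rats. TGFBRi rats P2N and P2R were below all vehicle rats and P1N and P1R were not, and the log2 fold change was -0.86 (SE 0.52, unadjusted p = 0.115 in limma). It was -0.46 without TGFBRi P2N and -0.69 to -1.16 with any other single rat left out, and -1.79 (unadjusted p = 0.0137 and adjusted p = 0.964 in limma) with the share of counts on no single gene as a covariate. SMAD2, SMAD3 and SMAD4, which carry the signal to the nucleus, differed by -0.28 (SE 0.22), 0.62 (SE 0.41) and -0.12 (SE 0.18), each with overlapping groups, and by 0.06, 0.10 and 0.02 without P2N and P2R.

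Of 18 genes known as TGFβ targets, 1 was higher and 0 lower at an unadjusted p under 0.05 (over all genes 9.61% and 3.43%), with a median of 0.33. Without P2N and P2R, 0 were higher and 1 lower (over all genes 2.83% and 1.30%) and the median was -0.03. No member had groups that did not overlap. CCN2 measured 319, 223, 306 and 153 in vehicle and 213, 80.4, 89.4 and 120.5 in TGFBRi rats (log2 fold change -1.04, SE 0.66), and the CDK inhibitor CDKN1A 1758, 898, 2692 and 2961 and 1167, 1605, 429.8 and 1114 (log2 fold change -0.95, SE 0.52, or -0.37 without P2N and P2R). In each the groups overlapped. The 4 ID genes, which inhibit basic helix-loop-helix factors and answer to BMP and TGFβ, had a median of 0.18, or 0.09 without P2N and P2R. ID1 measured 2657 to 3060.0 in vehicle and 3683 to 6378 in TGFBRi rats, with no overlap and a log2 fold change of 0.64 (SE 0.41). ID1 is named after its values were seen.

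The circadian clock is a transcriptional loop that runs in most cells, luminal cells included. The 15 clock genes tested summed to 12969 to 16953 normalized counts in vehicle and 20121 to 23341 in TGFBRi rats, so that the groups did not overlap. Of the 15, 14 had a positive log2 fold change, 5 were higher and 0 lower at an unadjusted p under 0.05 (over all genes 9.61% and 3.43%), and the median was 0.49 beside 0.13 over all genes. Without P2N and P2R, 4 were higher and 0 lower (over all genes 2.83% and 1.30%) and the median was 0.50 beside 0.03. NR1D1, the REV-ERBα repressor of the clock, measured 916, 1546, 1113 and 1628 in vehicle rats and 3701, 2843, 3701 and 2046 in TGFBRi rats. Its log2 fold change was 1.24 (SE 0.27, adjusted p = 0.0981 in limma, 0.00617 in DESeq2). PER1, a negative-limb clock gene that glucocorticoids also induce, measured 218, 321, 237 and 259.6 in vehicle rats and 487, 689.8, 614 and 987 in TGFBRi rats, a log2 fold change of 1.39 (SE 0.34, adjusted p = 0.15 in limma, 0.00822 in DESeq2). The negative-limb genes PER2 and CRY2 and the repressor BHLHE40 had log2 fold changes of 0.58 (SE 0.23), 0.55 (SE 0.24) and 0.55 (SE 0.24). The other 10 ranged from -0.34 (SE 0.31) for CRY1 of the negative limb to 0.72 (SE 0.40) for CLOCK of the positive limb, which were -0.15 and 0.28 without P2N and P2R. BHLHE40, CRY1 and CLOCK are named after their values were seen. The hours at which glands were taken were not used here.

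**Figure D4:**
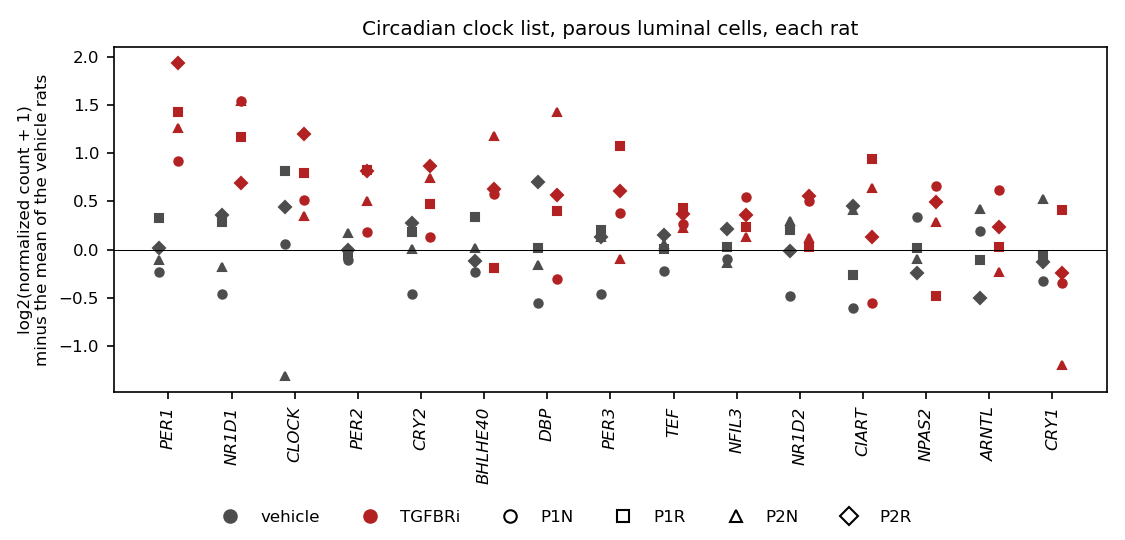
Log2(normalized count + 1) minus the mean of the 4 vehicle rats (y axis) for the 15 clock genes tested in parous luminal cells, each rat as a point, vehicle in grey and TGFBRi in red. Positive differences in 14 of 15 genes are visible, and the groups are fully apart for NR1D1, PER1, PER2 and TEF.

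Of 14 glucocorticoid-responsive genes, which share PER1 with the clock list, 4 were higher and 1 lower at an unadjusted p under 0.05 (over all genes 9.61% and 3.43%), with a median of 0.44. Without P2N and P2R, 3 were higher and 1 lower (over all genes 2.83% and 1.30%) and the median was 0.21. ZBTB16 was the called member. TSC22D3, the glucocorticoid-induced leucine zipper, measured 3118, 2012, 5299 and 4058 in vehicle and 4483, 4349, 5586 and 5913 in TGFBRi rats, with overlapping groups and a log2 fold change of 0.56 (SE 0.26), or 1.01 without P2N and P2R. ERRFI1, the member lower at the unadjusted threshold, had overlapping groups and a log2 fold change of -0.67 (SE 0.31). Its value without P2N and P2R is not given here. FKBP5 and DUSP1, other genes of this list, differed by 0.44 (SE 0.34) and 0.20 (SE 0.32), or 0.16 and 0.48 without P2N and P2R, and are named after their values were seen.

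The IGF axis, which relays growth and insulin signals, had the highest median of the lists at 1.04, but 0.19 without P2N and P2R. Only 9 of its 12 genes had a mean of at least 50 normalized counts. Below that mean, IRS1, IGF2 and IGF1 had log2 fold changes of 2.68 (SE 1.20), 1.48 (SE 0.99) and 1.37 (SE 1.13). These depend on the pseudocount and raise the median of 1.04. Of its 12 genes tested, 4 were higher and 0 lower at an unadjusted p under 0.05 (over all genes 9.61% and 3.43%), and 2 and 0 without P2N and P2R (over all genes 2.83% and 1.30%). Besides IGF2R, the adaptor IRS2 measured 1256, 1394, 1009.8 and 492 in vehicle rats and 1694, 1995, 2309 and 3239 in TGFBRi rats, a log2 fold change of 1.21 (SE 0.31, adjusted p = 0.169 in limma, 0.0353 in DESeq2), or 0.76 without P2N and P2R. The insulin receptor INSR measured 197, 244, 59.3 and 151 in vehicle and 325, 247, 309 and 499 in TGFBRi rats (log2 fold change 1.20, SE 0.36, or 0.60 without P2N and P2R). The groups did not overlap for either gene, although INSR in vehicle P1R and TGFBRi P1R lay close together. The receptor IGF1R overlapped between groups, with a log2 fold change of 0.70 (SE 0.34), or 0.30 without P2N and P2R.

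Milk protein and milk fat genes mark secretory differentiation, and no member passed the adjusted threshold in limma. Of 12 milk protein genes, 11 had a positive log2 fold change and 2 were higher and 0 lower at an unadjusted p under 0.05 (over all genes 9.61% and 3.43%), with a median of 0.91. With P2N and P2R left out 0 were higher and 0 lower (over all genes 2.83% and 1.30%), and the median was 0.27. Of the 12 genes, 10 had a mean of at least 50 normalized counts. The summed milk protein counts overlapped between groups, at 629035 to 1497309 in vehicle and 1066046 to 2437082 in TGFBRi rats. Those of the milk fat genes below also overlapped, at 264483 to 277595 and 178549 to 329448. CSN1S1, the alpha-S1 casein, measured 86758, 139754, 50295 and 62822 in vehicle rats and 340476, 287121, 152415 and 188737 in TGFBRi rats, with no overlap and a log2 fold change of 1.55 (SE 0.53, adjusted p = 0.27 in limma). WAP, the whey acidic protein, overlapped through 1 rat of each group, with a log2 fold change of 1.49 (SE 0.67), or 0.98 without P2N and P2R. Of 20 genes of milk fat synthesis, 4 were higher and 0 lower at the unadjusted threshold (over all genes 9.61% and 3.43%), with a median of 0.45, and without P2N and P2R 3 were higher and 1 lower (over all genes 2.83% and 1.30%) and the median was 0.10. FASN, the fatty acid synthase, measured 11954, 18343, 4791 and 5526 in vehicle and 29661, 29833, 28298 and 46254 in TGFBRi rats, a log2 fold change of 1.91 (SE 0.45, adjusted p = 0.124 in limma, 0.0122 in DESeq2), or 1.15 without P2N and P2R. ACSS2, which makes acetyl-CoA from acetate, measured 250.3 to 392 in vehicle and 664 to 773 in TGFBRi rats, and LPIN1, a phosphatidate phosphatase, 839 to 1221 and 1228 to 4683. Of these, ACSS2 and LPIN1 were also without overlap and higher with TGFBRi in virgin luminal cells, with log2 fold changes of 1.35 (SE 0.29) and 1.39 (SE 0.40), beside 1.24 (SE 0.29) and 1.49 (SE 0.40) in parous cells.

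Of 9 luminal identity genes, 2 were higher and 0 lower at an unadjusted p under 0.05 (over all genes 9.61% and 3.43%), with a median of -0.15, and without P2N and P2R 1 was higher and 0 lower (over all genes 2.83% and 1.30%) and the median was 0.08. CD24, whose protein was used to sort the cells, measured 21489, 24992, 19547 and 24235 in vehicle and 42379.9, 44239, 34784 and 40200.1 in TGFBRi rats, a log2 fold change of 0.84 (SE 0.18, adjusted p = 0.0981 in limma) that was 0.80 without P2N and P2R. The luminal keratins KRT8 and KRT18 and the adhesion molecule EPCAM differed by 0.18 (SE 0.26), -0.13 (SE 0.23) and -0.23 (SE 0.34), each with overlapping groups. These differences were 0.37, 0.15 and 0.08 without P2N and P2R. The hormone receptors ESR1 and PGR had log2 fold changes of 1.12 (SE 0.39) and 1.16 (SE 0.44), each with overlapping groups. Of 11 genes of mature hormone-sensing cells 10 were positive and 2 were higher and 0 lower at an unadjusted p under 0.05 (over all genes 9.61% and 3.43%), with a median of 0.51, and without P2N and P2R 0 were higher and 0 lower (over all genes 2.83% and 1.30%) and the median was 0.25. Of 14 progenitor and alveolar genes, 0 passed that threshold in either direction, with a median of -0.03, or -0.11 without P2N and P2R. KRT14, a basal keratin, measured 1176, 2107, 1099 and 1562 in vehicle and 197, 1117, 184 and 656 in TGFBRi luminal cells (log2 fold change -1.83, SE 0.64), with overlapping groups. The summed basal markers given above were 1307 to 2866 and 415 to 1596 in the same libraries, and include KRT14 (mean of 1012 over them). Of 14 basal and myoepithelial genes, 1 was higher and 1 lower at an unadjusted p under 0.05 (over all genes 9.61% and 3.43%), with a median of 0.29. Without P2N and P2R, 0 were higher and 1 lower (over all genes 2.83% and 1.30%) and the median was -0.56. The part of basal cells in the KRT14 difference was not tested.

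Laminins are basement membrane proteins on which the epithelium rests. LAMC1, the gamma-1 laminin chain, measured 691, 1121, 454 and 678 in vehicle and 2483, 1168, 2983 and 2136 in TGFBRi rats, a log2 fold change of 1.57 (SE 0.38, adjusted p = 0.149 in limma, 0.012 in DESeq2). LAMA3, LAMA5 and LAMB2, the other laminin chains named by the rule, had log2 fold changes of 2.03 (SE 0.55), 1.96 (SE 0.56) and 0.52 (SE 0.19), with no overlap between groups in any of them, and that of LAMA5 was 1.05 without P2N and P2R. ITGB4, the beta-4 integrin that binds laminin, measured 3381, 3614, 1745 and 1719.5 in vehicle and 6222, 5581, 5344 and 7253 in TGFBRi rats, a log2 fold change of 1.30 (SE 0.35, adjusted p = 0.179 in limma, 0.0426 in DESeq2), or 0.79 without P2N and P2R. Of 31 matrix genes, 5 were higher and 0 lower at an unadjusted p under 0.05 (over all genes 9.61% and 3.43%), with a median of 0.63. Without P2N and P2R, 2 were higher and 0 lower (over all genes 2.83% and 1.30%) and the median was -0.40, while the 4 laminins above had log2 fold changes of 0.47 to 1.52.

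Proliferation genes gave no called member. Of 35 S phase genes, 0 were higher and 1 lower at an unadjusted p under 0.05, with a median log2 fold change of -0.13, and of 46 G2/M genes 4 were higher and 0 lower, with a median of 0.69. Over all genes 9.61% were higher and 3.43% lower, and the median was 0.13. Of the 46 G2/M genes, only 17 had a mean of at least 50 normalized counts. The 4 higher ones, NUSAP1, CDCA3, CDC25C and KIF23, were below that mean, where fold changes depend on the pseudocount. The summed G2/M counts overlapped between groups, at 18099 to 20592 in vehicle and 16889.8 to 23766 in TGFBRi rats. The G2/M median is therefore not a measure of proliferation. Without P2N and P2R, 0 S phase genes were higher and 4 lower (median -0.59) and 0 G2/M genes passed in either direction (median 0.02), beside 2.83% higher, 1.30% lower and a median of 0.03 over all genes. Of 14 CDK inhibitors and G1 genes, 1 was higher and 0 lower at that unadjusted threshold (over all genes 9.61% and 3.43%), 7 log2 fold changes were positive and 7 negative, and the median was -0.01. For these genes 0 passed in either direction without P2N and P2R, and the median was -0.05. The member that was higher, the G1 kinase CDK6, measured 297, 415, 193 and 284 in vehicle and 566, 526, 766 and 553 in TGFBRi rats (log2 fold change 1.05, SE 0.31, adjusted p = 0.214 in limma). Of 18 apoptosis and p53 genes, 2 were higher and 3 lower (median -0.19), and without P2N and P2R 1 and 1 (median -0.11), beside the same shares over all genes. MCL1, which blocks apoptosis, measured 4483 to 5215 and 6327 to 7143, a log2 fold change of 0.48 (SE 0.16).

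**Figure D5:**
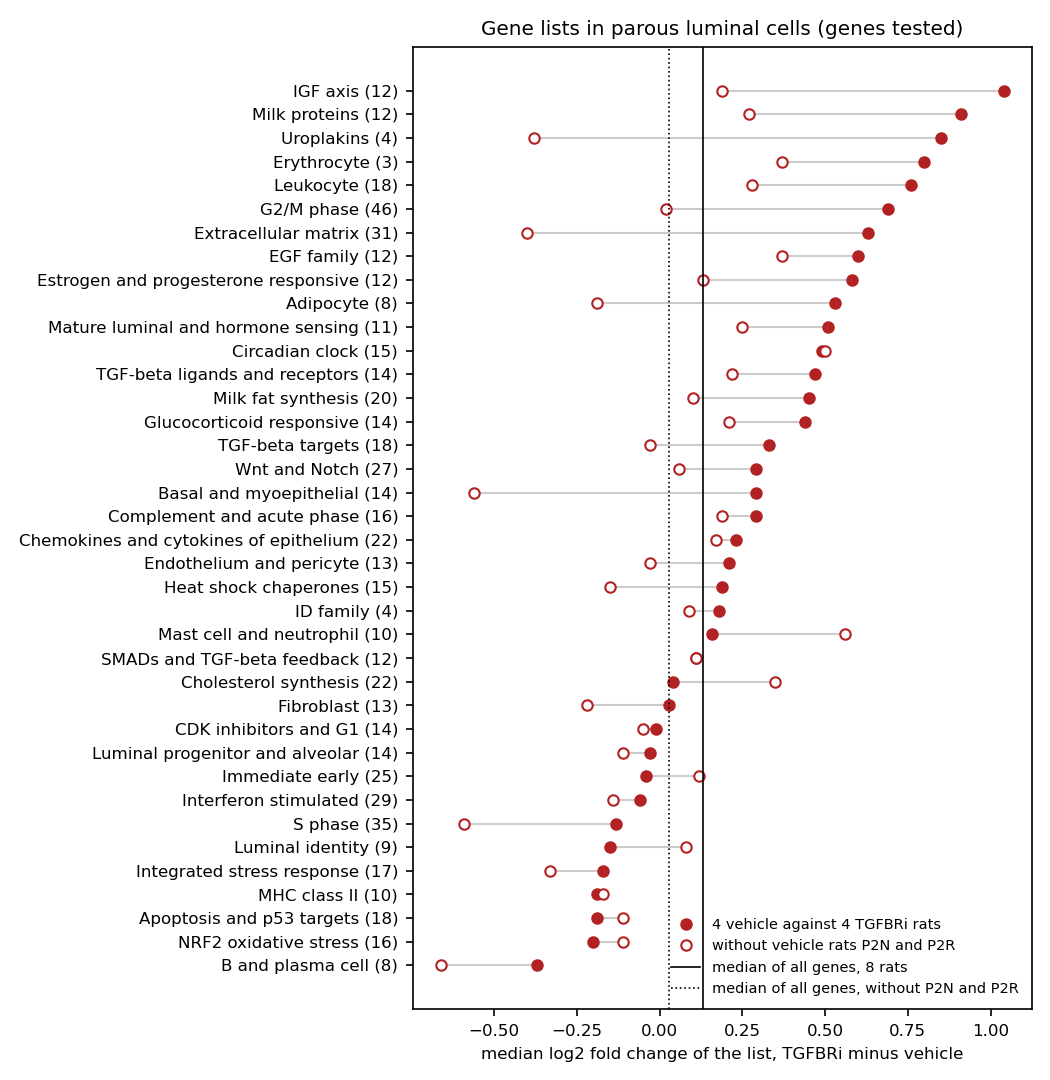
Median log2 fold change of TGFBRi minus vehicle in parous luminal cells (x axis) for 38 gene lists (y axis, number of genes tested in parentheses), filled points with all 8 rats and open points without vehicle rats P2N and P2R, beside the medians of all genes at 0.13 (solid line) and 0.03 (dotted line). The IGF axis moves from 1.04 to 0.19 and the matrix list from 0.63 to -0.40, while the circadian clock is at 0.49 and 0.50. Low genes enter these medians, and in the IGF axis 9 of 12 genes had a mean of at least 50 normalized counts.

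The share of counts on no single gene, 23.1 to 27.0% in vehicle and 25.2 to 35.2% in TGFBRi libraries, moved many values when it was added to the fit as a covariate, an alternative chosen after seeing the data. The median over all genes was then 0.05, and 405 genes were higher and 313 lower at an unadjusted p under 0.05. Of the 206 genes given by the naming rule, 28 changed sign and 84 others moved by over 1.5 times, and of the 38 list medians 14 changed sign and 14 others moved by over 1.5 times. IGF2R, ZBTB16 and MOB1A had log2 fold changes of 1.80, 2.90 and -1.87 in this fit, with no gene at the adjusted threshold. The secretory genes CSN1S1, WAP and LPIN1 were at 0.82, 0.59 and 0.75, whereas the milk fat list had a median of 0.55 and the milk protein list one of 0.61. SMAD3 and KRT8 turned to -0.24 each, and KRT18 and EPCAM were at -0.34 and -0.59. ITGB6 was at 1.54, KIF1B at 1.03, IGF1R at 0.43 and PDIA6 at -0.49, and the medians of the IGF axis, the matrix and the glucocorticoid list were 0.32, 0.11 and -0.09. Other values grew in size, PGR to 1.93, ID1 to 1.31, CRY2 to 0.88, TSC22D3 to 0.92, CDKN1A to -1.60, GCLC to -1.29, SMAD2 to -0.48, TGFB1 to 0.46 and TGFB3 to 0.39. The hormone-sensing median was 1.09, the ID median 0.53, the luminal identity median -0.59 and the progenitor and alveolar median -0.45. The clock median was 0.42. The TGFβ target and the SMAD and feedback medians turned to -0.08 and -0.10, and the S phase median to 0.05.

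The same dosing in adult virgin rats gave 0 genes at an adjusted p of 0.05 or less in luminal cells in limma (0%) and in edgeR, with 976 genes at an unadjusted p under 0.05 (6.85%) and 15 genes called by DESeq2. When the TGFBRi differences of parous and virgin rats were compared directly, 0 genes passed (0%) in limma and in edgeR, 606 had an unadjusted p under 0.05 (4.25%), and DESeq2 called 3, which were ZBTB16, MOB1A and SNX6. The parous minus virgin difference was 3.09 (SE 0.58, adjusted p = 0.693 in limma) for ZBTB16, 1.27 (SE 0.29) for IGF2R and -1.90 (SE 0.43) for MOB1A, the last -1.22 without P2N and P2R. ZBTB16 measured 412, 927, 436 and 657 in virgin vehicle rats and 402, 571, 240.0 and 494 in virgin TGFBRi rats, with overlapping groups. MRC2, a collagen receptor, had a parous minus virgin difference of 2.92 (SE 0.65), with a log2 fold change of 1.63 in parous cells, or 1.06 without P2N and P2R, and -1.29 in virgin cells.

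In basal cells of the same parous rats, 1 of 13442 genes (0.00744%) passed in limma, PLXNB3, and 678 had an unadjusted p under 0.05 (5.04%). IGF2R and MOB1A differed by 0.08 (SE 0.30) and -0.27 (SE 0.42) there, each with overlapping groups. ZBTB16 in basal cells measured 204, 377, 353 and 462 in vehicle and 1769, 1317, 796 and 1048 in TGFBRi rats, again without overlap, with a log2 fold change of 1.82 (SE 0.42, adjusted p = 0.551 in limma). TSC22D3 measured 1627, 1571, 1726 and 876 in vehicle and 15852, 5380.0, 5427 and 5249 in TGFBRi basal cells, a log2 fold change of 2.32 (SE 0.41, adjusted p = 0.121 in limma), and PER1 one of 1.22 (SE 0.48). The clock list had a median of 0.44 and the glucocorticoid list one of 0.83 in basal cells, beside 0.04 over all basal genes. In the same basal libraries the endothelium and pericyte list had a median of 1.04 (sums of 3242 to 8165 in vehicle and 7224 to 17337 in TGFBRi rats) and the adipocyte list one of 1.20 (sums of 936 to 3669.7 and 1547 to 7312), and the part of such cells in the basal values was not tested. The luminal and basal fractions came from the same rats, so these are not separate animals.

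The luminal minus basal difference of the TGFBRi effect, taken within rats, passed the adjusted threshold for 0 of 13151 genes in limma (0%) and in edgeR, with 936 genes at an unadjusted p under 0.05 (7.12%) and 40 genes called by DESeq2. The differences were 1.67 (SE 0.40, adjusted p = 0.564 in limma) for IGF2R, -1.71 (SE 0.40) for MOB1A and 0.77 (SE 0.69) for ZBTB16. GCLC, the catalytic subunit of glutathione synthesis, had the smallest p of this comparison among the named genes, with a log2 fold change of -0.85 in luminal and 0.74 in basal cells and a difference of -1.58 (SE 0.26, adjusted p = 0.178 in limma). IFIT1, an interferon-stimulated gene, measured 588, 878, 577 and 361 in TGFBRi basal cells against 87.8, 233, 211 and 179 in vehicle basal cells, and its luminal log2 fold change was -0.30, or 0.07 without P2N and P2R, a difference of -2.08 (SE 0.41).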

How the data were processed

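Libraries had been made by the authors from sorted cells with a low-input SMARTer kit (unstranded, so that overlapping and antisense genes cannot be told apart). Per the labels and methods, reads were aligned with STAR to rn6 and counted with HTSeq, and the deposited values are a gene-level signal, that is counts divided by DESeq2 size factors. All values above 0 were whole reads times 1 step per library (100.0% at a tolerance of 0.001), so reads were recovered for edgeR and DESeq2. Counts on no single gene stayed out of all tests. The 16 adult luminal libraries (4 groups of 4) were fitted together with limma 3.58.1 (R 4.3.3, trend and robust) on log2(normalized count + 1), for genes with a sum of at least 10, and basal libraries likewise. Adjusted p is Benjamini-Hochberg over all genes tested. Fold changes of low genes depend on the pseudocount, and a library at 0 can enlarge them. edgeR 4.0.16 and DESeq2 1.42.0 were alternatives. Only the limma fit of the parous luminal comparison was run on simulated data, and its outcome is not given here. Replicates are rats, and each rat has its own code within an arm.

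Named genes were up to 12 per direction with a mean of at least 50 and no overlap between groups, called genes first by size and then by unadjusted p, up to 4 per direction for the parous minus virgin and luminal minus basal differences, the called or up to 4 top genes of each of 38 lists, all TGFβ genes and the markers. Members and lists were chosen with earlier results of these data known. List members not in the tables were not analysed. Some genes that the rule names are not reported here, and counts and list values include them.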

Additional observations from a re-analysis of the deposited data

Results flagged for a closer look

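In 54 groups of 4 values examined (24 genes and 3 library measures in each arm), 2 held a value whose gap to the nearest other rat exceeded Dixon's critical share of the range of its group, and chance alone flags about 1 group in 20. AFF1 measured 2000.4 normalized counts in TGFBRi rat P2R, against 1109 to 1245 in the other 3 TGFBRi rats. KIF1B measured 548 in vehicle rat P1R, against 196 to 236 in the other 3 vehicle rats. Neither gene passed the adjusted threshold in limma, and the groups did not overlap for either gene.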

How the results depend on the processing

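In parous luminal cells, 2 genes called higher and 2 lower became 153 and 59 with DESeq2, 1 and 0 with plain limma, 2 and 0 with only the 8 libraries compared, 2 and 1 with a pseudocount of 5, and 4 and 2 with a mean filter of 10. They became 0 and 0 with the animal code as a block, without vehicle rats P2N and P2R, and with the share of counts on no single gene as a covariate, the last pair of fits chosen after seeing the data. With single rats left out, calls ranged from 1 to 90 higher and 0 to 12 lower, with both highest values without vehicle P1R. Rats sharing a code in the 2 arms did not deviate together (correlations -0.064 to 0.017), so the block is no pairing. List members called went from 2 to 16 with DESeq2, 1 with plain limma or the 8 libraries, 0 with the block, without P2N and P2R or with the covariate, and 1 to 9 with single rats left out. Virgin calls went from 0 to 15 with DESeq2 and 0 to 2 with single rats left out, parous minus virgin calls from 0 to 3 and 0 to 1, and luminal minus basal calls from 0 to 40 with DESeq2. Basal calls went from 1 to 0 with edgeR, a mean filter of 10 or the block, 3 with a pseudocount of 5 or plain limma, 14 with DESeq2, and 0 to 5 with single rats left out. Of 206 genes given by the naming rule, 145 kept their sign in every alternative, all 4 called genes among them. The cause of these changes was not tested, and 4 rats a group limit what could be called.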
